A study of Mus musculus with 8 samples.

Results

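The comparison described here is that of quiescent neural stem cells (qNSCs) of the mouse kept for 24 h in bafilomycin A (BafA) with the same kind of cells kept in it for 4 h. Its samples are the 2 arrays labelled BafA at 24 h and the 2 labelled BafA at 4 h, of 8 arrays in the study, and its members are the 20890 of 23473 probes that have a value on all 4 of them. The cells of every group had first been held for 3 days in quiescence medium containing BMP, a growth factor that arrests neural stem cells, and were then kept in quiescence medium with or without 20 nM BafA. The study's other groups are 2 control arrays at 24 h and 2 at 4 h, whose cells received quiescence medium alone for the same times. The comparison asks how the transcriptome moves from an early to a late time under the block, and the control arrays show how much of that movement also took place without BafA. Whether the duplicates of a group are separate cultures is not given in the sources used here, so the p-values measure the spread between arrays, which may be technical.

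BafA blocks the V-ATPase, the proton pump that acidifies lysosomes and endosomes. Without acid, lysosomal hydrolases work poorly, cholesterol and iron taken up by endocytosis are released less well, and autophagosomes are not degraded. Neural stem cells are the self-renewing cells of the brain that give rise to neurons and glia, and in BMP they leave the cell cycle reversibly and take on many traits of astrocytes.

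RNA was measured on single-colour oligonucleotide arrays. The values below are background-subtracted spot signals scaled so that the median of each array is 25, and they have no unit beyond that. Duplicate BafA arrays correlated at r = 0.9955 at 24 h and r = 0.9957 at 4 h, while arrays of the 2 times correlated at 0.959 to 0.961 (log2 values, across probes, which are not independent replicates). Probes valued at 5 or less were the least precise, with a median difference between duplicates of 0.30 log2 units at 24 h and 0.28 at 4 h. The 99th percentile of the values was 4755 and 4902 on the 24 h arrays, against 3278 and 3286 on the 4 h arrays, so that bright spots were brighter at 24 h as a class. Of the 14926 named genes tested, 196 had several probes, and the brightest probe stands for each of them.

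The cells carried the label's defining genes. Fabp7, a fatty acid binding protein of neural stem cells, had values of 22503 and 20414 at BafA 24 h, against 11621 and 11184 at BafA 4 h. Vim, the intermediate filament vimentin, had 16885 and 14418 at BafA 24 h, against 22432 and 20504 at BafA 4 h. Of the 11 neural stem cell markers tested, 6 rose and 3 fell. Ccnd1 and Sox2, which the study also follows, were not analysed here. The microglial markers Cx3cr1 and P2ry12 were near the floor, with Cx3cr1 at 2.8 and 1.4 at BafA 24 h, against 2.1 and 1.4 at BafA 4 h, and P2ry12 at 1.6 and 1.1 at BafA 24 h, against 2.6 and 2.4 at BafA 4 h. Fcer1g was brighter and fell, with 26.7 and 26.6 at BafA 24 h, against 44.1 and 45.4 at BafA 4 h, and Laptm5 rose, with 21.4 and 22.9 at BafA 24 h, against 9.2 and 11.7 at BafA 4 h. The 13 microglial markers summed to 1198 and 1357 at BafA 24 h, against 380.4 and 405.3 at BafA 4 h, of which Cd68, a lysosomal membrane glycoprotein that is not specific to microglia, made 1015 and 1179, against 204 and 231. The part of such cells in the results was not tested. In such bulk samples fewer cells of a type and less RNA per cell cannot be told apart.

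Between 4 h and 24 h of BafA a large share of the transcriptome moved. Of the 20890 probes, 4865 rose (23.3%) and 3724 fell (17.8%) at an adjusted p under 0.05 in limma, the linear model for arrays, with p-values adjusted over all probes by the Benjamini-Hochberg method. Under quantile normalization, which gives every array the same distribution of values, 4012 were higher and 4230 lower. Of the probes called as deposited, 1521 rose and 1286 fell by more than 2-fold, 302 rose and 317 fell by more than 4-fold, and 85 rose and 97 fell by more than 8-fold. By group means alone, with no test, 1543 probes (7.39%) were at least 2-fold higher and 1301 (6.23%) at least 2-fold lower. Among the named genes 3584 rose (24% of those tested) and 2906 fell (19.5%), and their median log2 fold change was 0.07. The counts in gene groups given later are read against these shares, which hold for the deposited scaling.

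The genes with the largest rises included secreted proteins, enzymes of amino acid and sterol metabolism, and a prostaglandin synthase. Timp4, an inhibitor of matrix metalloproteinases, had values of 3198.5 and 3787 at BafA 24 h, against 11.5 and 11.1 at BafA 4 h, or 8.27 ± 0.12 as a log2 fold change (± SE, n = 2 arrays each, with an adjusted p of 5.78e-12 in limma). It rose in the control course too, with 1067 and 1055 at control 24 h, against 9.5 and 9.6 at control 4 h. Angpt2, the angiopoietin that binds the Tie2 receptor, had 1070 and 1260.3 at BafA 24 h, against 13.1 and 15.3 at BafA 4 h (log2 fold change 6.36 ± 0.13, adjusted p = 1.49e-10). Its control change was 2.89 on the log2 scale. Chac1, an enzyme that breaks down glutathione, had 625 and 599.8 at BafA 24 h, against 10.3 and 13.8 at BafA 4 h (log2 fold change 5.68 ± 0.16, adjusted p = 1.76e-09). For each of these genes both 24 h arrays lay far above both 4 h arrays, a separation that was a condition of being named and that 40.6% of all probes met upwards and 30.8% downwards.

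Among the other genes at the top were Igfbp3, which binds insulin-like growth factors, with 3865 and 4669 at BafA 24 h, against 173 and 255 at BafA 4 h, and Slc6a6, the taurine transporter, with 1526 and 1010.1 at BafA 24 h, against 29.2 and 31.5 at BafA 4 h. Slc6a6 rose in control too, with 713.8 and 605.1 at control 24 h, against 39.1 and 27.9 at control 4 h. The control changes on the log2 scale were 1.01 for Igfbp3 and 4.31 for Slc6a6. Ptgs2, the inducible cyclooxygenase of prostaglandin synthesis, had 262.5 and 297 at BafA 24 h, against 11.3 and 12.2 at BafA 4 h (log2 fold change 4.57 ± 0.21). Pycr1, the last enzyme of proline synthesis, had 123.5 and 136 at BafA 24 h, against 5.2 and 6.1 at BafA 4 h. The remaining members of the 15 were 1600014C23Rik, the Ras-like GTPase gene Rerg, Nupr1, Lrba, the TRAIL decoy receptor gene Tnfrsf22, Egln3, the sterol reductase gene Tm7sf2 and the receptor phosphatase gene Ptpro, with log2 fold changes between 4.02 for Ptpro and 5.83 for 1600014C23Rik. 1600014C23Rik had 131 and 153 at BafA 24 h, against 2.7 and 2.3 at BafA 4 h. Rerg had 124 and 118 at BafA 24 h, against 3.5 and 4.6 at BafA 4 h, so both folds rest on dim spots at 4 h, as do those of Pycr1, Nupr1 and Tnfrsf22. With scanner signals corrected by normexp, which draws dim spots together, the log2 fold changes were 2.52 for 1600014C23Rik, 2.25 for Rerg, 2.26 for Pycr1, 2.39 for Nupr1, 2.17 for Tnfrsf22 and 2.56 for Ptpro, against 6.52 for Timp4 and 4.86 for Angpt2, and the order of the genes differed.

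**Figure D1:**
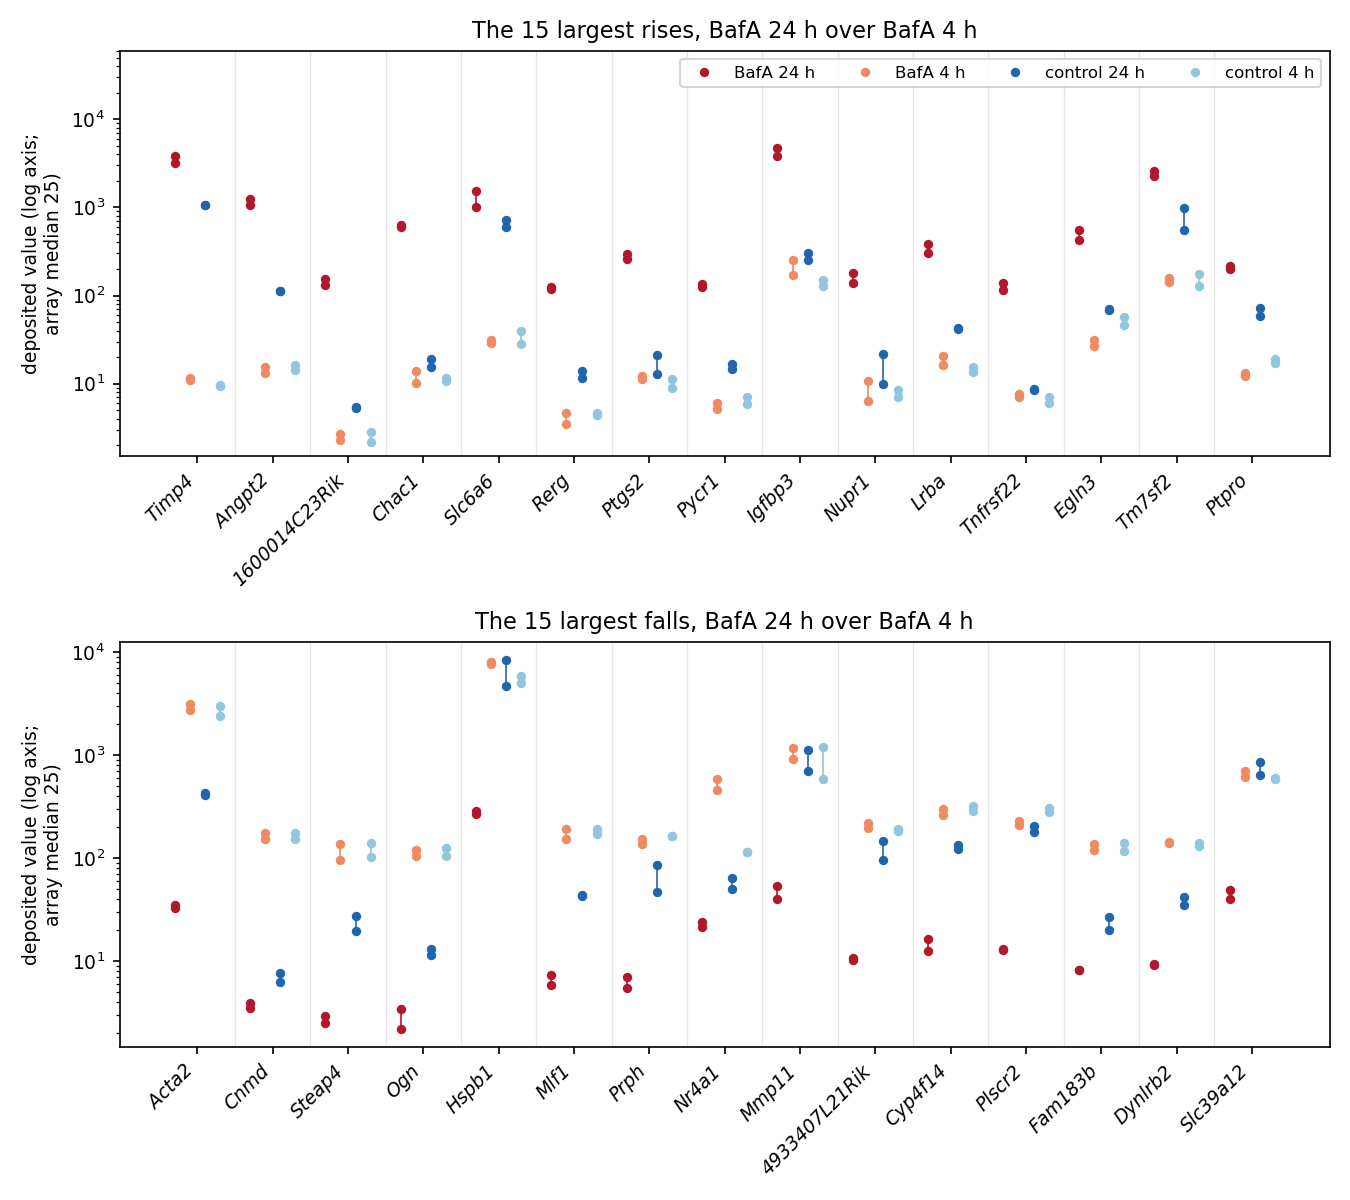
Deposited values (log axis, array median 25) of the 15 genes with the largest rise (upper panel) and the 15 with the largest fall (lower panel) between BafA 24 h and BafA 4 h, with 1 point per array and a line joining the 2 arrays of a group. Duplicates sit close together beside the gap between times, and the control groups show which genes moved without BafA, such as Timp4 at 1067 and 1055 at control 24 h.

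The genes with the largest falls included a contractile actin, a heat shock protein and a nuclear receptor. Acta2, smooth muscle actin, had values of 32.5 and 35.1 at BafA 24 h, against 2739 and 3146 at BafA 4 h, or -6.44 ± 0.14 as a log2 fold change (± SE, with an adjusted p of 1.49e-10). Hspb1, a small heat shock protein, had 269 and 282 at BafA 24 h, against 7943 and 7666 at BafA 4 h (log2 fold change -4.82 ± 0.20, adjusted p = 1.34e-08). Nr4a1, an immediate-early nuclear receptor, had 21.4 and 24.1 at BafA 24 h, against 460.5 and 583 at BafA 4 h (log2 fold change -4.51 ± 0.15). Acta2 and Hspb1 were among the bright spots of the 4 h arrays, and in none of the 3 genes did the times overlap.

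Mmp11, a matrix metalloproteinase, had 53.6 and 39.5 at BafA 24 h, against 919 and 1171 at BafA 4 h. Slc39a12, a zinc importer, had 40.3 and 48.3 at BafA 24 h, against 612 and 699.9 at BafA 4 h. Prph, the intermediate filament peripherin, had 5.4 and 7 at BafA 24 h, against 137 and 152 at BafA 4 h. Cnmd, Steap4, Ogn and Mlf1 lay between 2.2 and 7.3 on the 24 h arrays, against 96.3 to 192.1 on the 4 h arrays. They fell in control too, with log2 changes of -4.56, -2.37, -3.22 and -2.06, whereas Mmp11 and Slc39a12 did not pass there (0.08 and 0.34). 4933407L21Rik, Cyp4f14, Plscr2, Fam183b and Dynlrb2, a dynein light chain, completed the 15, the last at 9.2 and 9.4 at BafA 24 h, against 144 and 141 at BafA 4 h. With normexp the log2 falls of these dimmer genes were smaller too, -2.63 for Cnmd and -2.22 for Dynlrb2.

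Some probes left the scale altogether. 102 probes had a value on both 24 h arrays and on neither 4 h array, 139 had the reverse pattern, and 625 had no value on any of the 4 arrays. The brightest named one was Capn3, a calpain protease, which had no value above the blank spots at BafA 24 h, against 60.8 and 51.5 at BafA 4 h. It was at least 74.8-fold lower at 24 h when the lowest values of those arrays, 0.8 and 0.7, stand in for it. Its control values were 32.2 and 15.2 at 24 h, against 77.7 and 69.4 at 4 h. Cxcl5, a neutrophil chemokine, was the brightest named gene with values at BafA 24 h, 11.3 and 13.0, and none at BafA 4 h. In control it had 4.6 and 3.9 at 24 h, against 2.1 and 3.1 at 4 h.

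The control course gives the background of time in quiescence medium without BafA. In the study's immunoblots, a change of medium at the start raised the active form of MEK, a kinase of the ERK pathway, at 4 h in control cells. Time in culture and a response to fresh medium cannot be told apart here. There, 4255 of 20867 probes rose (20.4%) and 3282 fell (15.7%) between 4 h and 24 h, 36.1% in all. The 2 courses share no array. The scanner gains of 1 control array at 24 h and 1 at 4 h were unlike those of the remaining 6 arrays, and with these 6 alone the control course had 4615 probes called in place of 7537. Of 14679 named genes tested in both courses, 1961 rose in both, and 1500 rose under BafA and did not pass in control. Likewise 1591 fell in both, and 1093 fell under BafA and did not pass in control. Opposite calls were fewer, with 107 genes that rose under BafA and fell in control and 215 that fell under BafA and rose in control. The test of the difference between the courses called 1733 probes with a more positive change under BafA (8.46% of 20473) and 1711 with a more negative one (8.36%). The genes with opposite calls, 107 and 215, all passed it, an outcome that opposite calls make nearly certain beforehand. Under quantile normalization the test called 1448 higher and 1833 lower. Without the first BafA 4 h array it called 2277 probes in place of 3444.

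**Figure D2:**
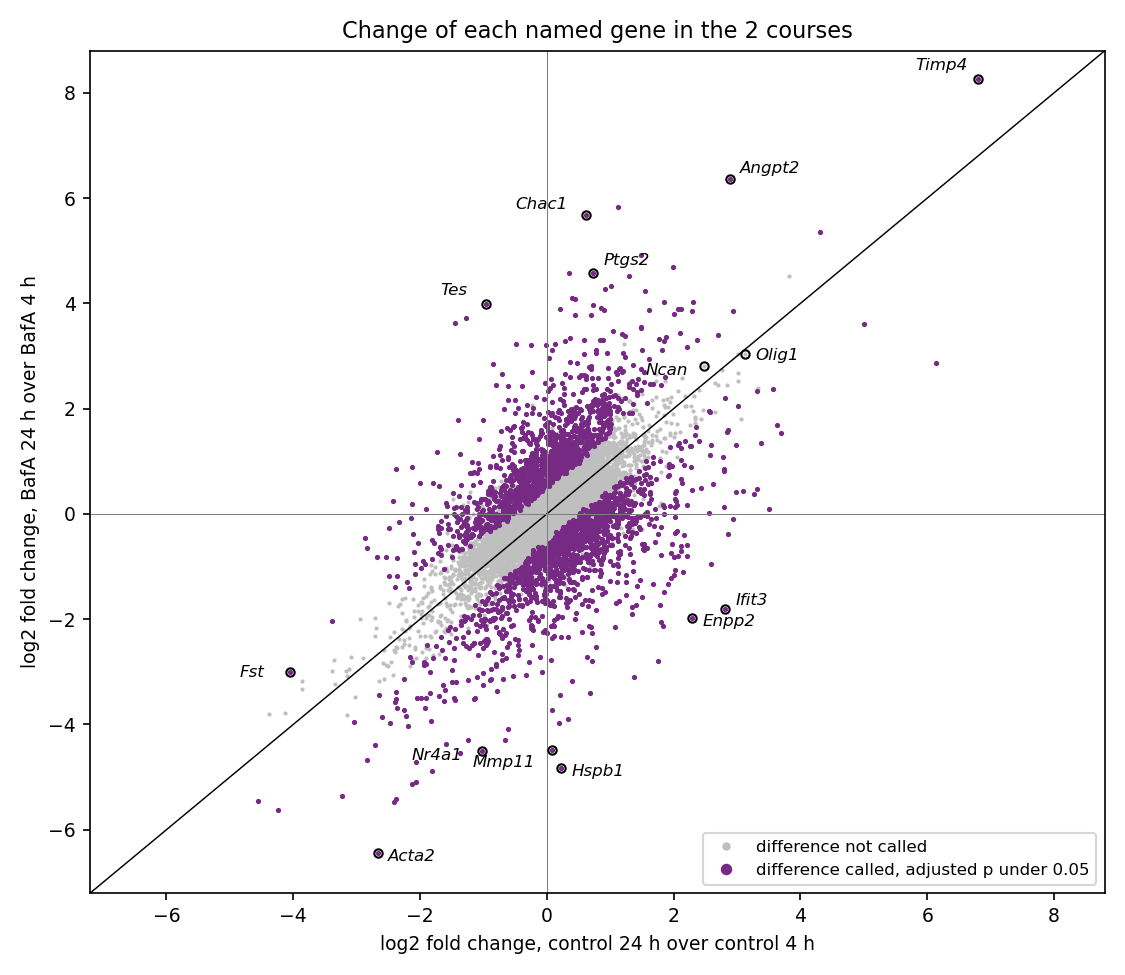
Log2 fold change of each of 14679 named genes in the BafA course (vertical axis, BafA 24 h over BafA 4 h) against the control course (horizontal axis, control 24 h over control 4 h), with the line of equal change. Purple points, 2651 genes, passed the test of the difference. Timp4 and Olig1 moved far in both courses, whereas Chac1 and Ptgs2 stand at 0.62 and 0.73 on the control axis and Hspb1 and Mmp11 at 0.22 and 0.08.

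Beside Chac1, 3 genes had the largest positive differences between the courses. Tm4sf1, a tetraspan membrane protein, had 14838 and 15230 at BafA 24 h, against 1117 and 1151 at BafA 4 h, and 257 and 651 at control 24 h, against 1147 and 849.8 at control 4 h, a difference of the log2 changes of 5.0 (adjusted p = 1.93e-05). Nptx1, neuronal pentraxin, had 1291 and 1177.5 at BafA 24 h, against 103 and 98.1 at BafA 4 h, and 21.3 and 28.8 at control 24 h, against 72.9 and 62.3 at control 4 h (difference 5.06). Tes, a LIM protein of focal adhesions, had 159.5 and 184 at BafA 24 h, against 11 and 10.5 at BafA 4 h, and 4.1 and 5.2 at control 24 h, against 9 and 9 at control 4 h (difference 4.96). These 3 genes rose under BafA and fell in control, and in each the highest of the 4 groups was BafA 24 h. Tes was dim in the other groups, and with normexp its log2 fold change under BafA was 2.40 in place of 3.99.

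On the other side, Hspb1 had 4704.5 and 8333 at control 24 h, against 5793 and 4965 at control 4 h, values that overlap, and its difference was -5.05 (adjusted p = 9.11e-07). Enpp2, the enzyme autotaxin that makes lysophosphatidic acid, had 46.2 and 44.8 at BafA 24 h, against 173 and 184.5 at BafA 4 h, and 1095 and 1019 at control 24 h, against 229 and 205 at control 4 h (difference -4.26). Mmd2 had 97.7 and 88.1 at BafA 24 h, against 749.8 and 835 at BafA 4 h, and 2158 and 1521 at control 24 h, against 691 and 699.6 at control 4 h (difference -4.47). Enpp2, Mmd2 and Vit, a matrix protein, fell under BafA and rose in control. Ntsr2, a neurotensin receptor, Cd59a, an inhibitor of complement, and the zinc finger gene Zfp91 fell under BafA, with log2 fold changes of -3.39, -3.72 and -3.45 and control changes of 0.67, 0.08 and 0.21.

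Gene lists give the course by function. The 46 lists had between 10 and 74 genes tested, and their median log2 fold changes under BafA ran from -0.47 for ribosome biogenesis to 1.81 for glycolysis. Over all named genes the difference test called 8.82% higher and 9.24% lower, and the control test 21.6% and 17.1%. No list was tested as a whole.

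**Figure D3:**
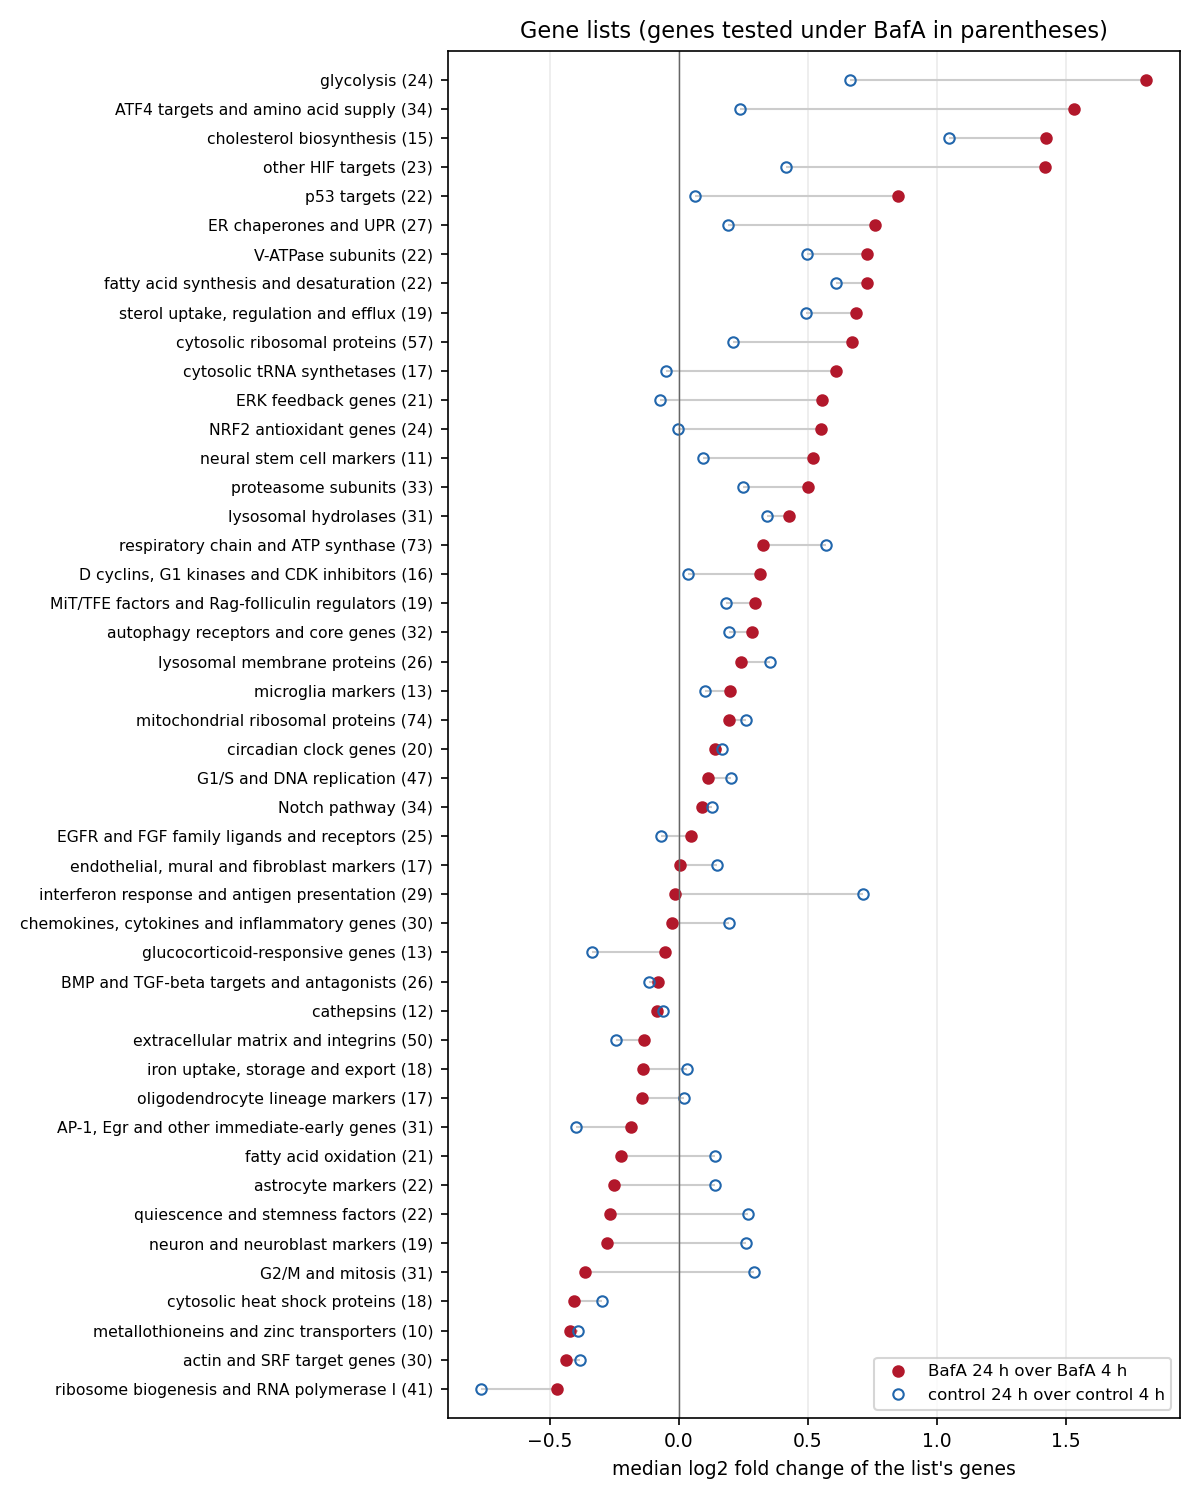
Median log2 fold change of each gene list in the BafA course (filled red) and in the control course (open blue), ordered by the BafA median, with the number of genes tested under BafA in parentheses. Glycolysis, ATF4 targets and HIF targets lie far to the right of their control medians, while interferon and G2/M genes lie to the left of theirs.

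Amino acid stress genes rose. ATF4 is the transcription factor of the integrated stress response, and its targets supply amino acids, one-carbon units and glutathione precursors. Of 34 genes tested, 26 rose and 4 fell (median log2 fold change 1.53, 0.24 in control), and the difference test called 19 higher and 1 lower. With normexp the BafA median was 0.65. Atf4 itself had values of 2441 and 2524 at BafA 24 h, against 687 and 761 at BafA 4 h, and 215 and 292 at control 24 h, against 472 and 535.5 at control 4 h, so it rose under BafA and fell in control (difference 2.79, adjusted p = 5.88e-06). Trib3, a pseudokinase that ATF4 induces, had 134 and 143 at BafA 24 h, against 16.8 and 21.5 at BafA 4 h. Ddit3, the factor CHOP, had 507.5 and 470.2 at BafA 24 h, against 172 and 166.5 at BafA 4 h. Mthfd2, a mitochondrial folate enzyme, had 514 and 496 at BafA 24 h, against 49.3 and 59.3 at BafA 4 h with a control change of -0.48 on the log2 scale.

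Members of the list differed. Asns, asparagine synthetase, had 599.9 and 433 at BafA 24 h, against 314 and 299 at BafA 4 h (log2 fold change 0.73 ± 0.16), a small rise beside that of Chac1, Pycr1 and Nupr1. Psat1, of serine synthesis, fell, with 852 and 925 at BafA 24 h, against 2821 and 2733 at BafA 4 h. Slc7a5, the large neutral amino acid transporter, rose in both courses, by 1.68 under BafA and 2.26 in control, while Slc7a11, the cystine transporter, was dim at 14.6 and 19.6 at BafA 24 h, against 5.8 and 5.9 at BafA 4 h. Atf3 did not pass the test (log2 fold change -0.19, adjusted p = 0.446).

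Enzymes that charge tRNAs with amino acids also rose. Of 17 cytosolic tRNA synthetase genes 11 rose and 0 fell (median 0.61, -0.05 in control), and 8 passed the difference test as higher. Cars, for cysteine, had the largest change, with 409.5 and 451 at BafA 24 h, against 150.3 and 154 at BafA 4 h (log2 fold change 1.5 ± 0.11), against a control change of -0.34. Hars and Wars, for histidine and tryptophan, had log2 fold changes of -0.25 and -0.14 and did not pass.

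Chaperones and folding enzymes of the endoplasmic reticulum rose. 18 of 27 genes rose and 2 fell (median 0.76, 0.40 under quantile normalization, and 0.19 in control). Hspa5, the main chaperone BiP, had 5972 and 6285 at BafA 24 h, against 3818 and 3725 at BafA 4 h. Sdf2l1 had 238 and 263 at BafA 24 h, against 46.1 and 48.2 at BafA 4 h (log2 fold change 2.41 ± 0.12). Xbp1 and Dnajb9 had log2 fold changes of 0.19 and 0.23 and did not pass, and the splicing of Xbp1 RNA was not measured.

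p53 target genes rose in the same interval. Of 22 genes 18 rose and 1 fell (median 0.85, 0.06 in control), and the difference test called 12 higher and 2 lower. Cdkn1a, the cell cycle inhibitor p21, had 1839 and 1832 at BafA 24 h, against 476 and 448 at BafA 4 h, and 189 and 283 at control 24 h, against 400.2 and 339.8 at control 4 h (log2 fold change 1.99 ± 0.17 under BafA, adjusted p = 2.56e-06). Ccng1, cyclin G1, had 1366 and 1441 at BafA 24 h, against 221 and 241 at BafA 4 h. Pmaip1, the death factor Noxa, had 126.5 and 124 at BafA 24 h, against 21.4 and 26.6 at BafA 4 h. Mdm2, the ligase that degrades p53, had 386.5 and 311 at BafA 24 h, against 160.1 and 213 at BafA 4 h. The gene that fell was Fas, a death receptor, with 306 and 278 at BafA 24 h, against 680.2 and 656 at BafA 4 h. Sesn2 stands in the ATF4 list too and Btg2 in the immediate-early list.

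Glycolytic genes showed the highest median of all 46 lists. 18 of 24 rose and 3 fell (5 under quantile normalization), with a median of 1.81 against 0.66 in control, and the difference test called 15 higher and 4 lower. Pdk1, a kinase that inhibits pyruvate dehydrogenase, had 216 and 227 at BafA 24 h, against 16.3 and 15.9 at BafA 4 h (log2 fold change 3.78 ± 0.11). Slc16a3, a lactate exporter, had 256 and 276 at BafA 24 h, against 27 and 27.7 at BafA 4 h. Among the brightest enzymes, Pgk1 had 17445 and 18798 at BafA 24 h, against 3803 and 4336 at BafA 4 h. Ldha, which makes lactate, had 20924 and 17627 at BafA 24 h, against 5739 and 5385 at BafA 4 h. The genes that fell were Ldhb, the lactate dehydrogenase subunit of oxidative tissues, with 590 and 665 at BafA 24 h, against 1823 and 1920.5 at BafA 4 h, the monocarboxylate transporter gene Slc16a1 and Aldoc, the brain aldolase, which is also an astrocyte marker. Slc16a1 and Aldoc rose in control.

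Further targets of HIF, the hypoxia factor, also rose. 17 of 23 rose and 1 fell (median 1.42, 0.42 in control), and 15 of 23 were called higher by the difference test. The BafA median was 0.74 with normexp. Egln3, a prolyl hydroxylase that marks HIF for degradation, had 553.5 and 429.8 at BafA 24 h, against 30.9 and 26.5 at BafA 4 h, and 71.2 and 68.5 at control 24 h, against 57.3 and 45.7 at control 4 h. Adm, adrenomedullin, had 433 and 398 at BafA 24 h, against 27.6 and 30.2 at BafA 4 h. Vegfa, the endothelial growth factor, had 163 and 183 at BafA 24 h, against 40.9 and 43.3 at BafA 4 h. Car9 and Epo, classical HIF targets, had log2 fold changes of -0.26 and 0.22 and did not pass, and Ndrg1 fell. In iron handling, Tfrc, the transferrin receptor, had 803 and 790.5 at BafA 24 h, against 154 and 152 at BafA 4 h (log2 fold change 2.38 ± 0.11, 0.77 in control), while Hmox1, heme oxygenase, did not pass (-0.21).

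**Figure D4:**
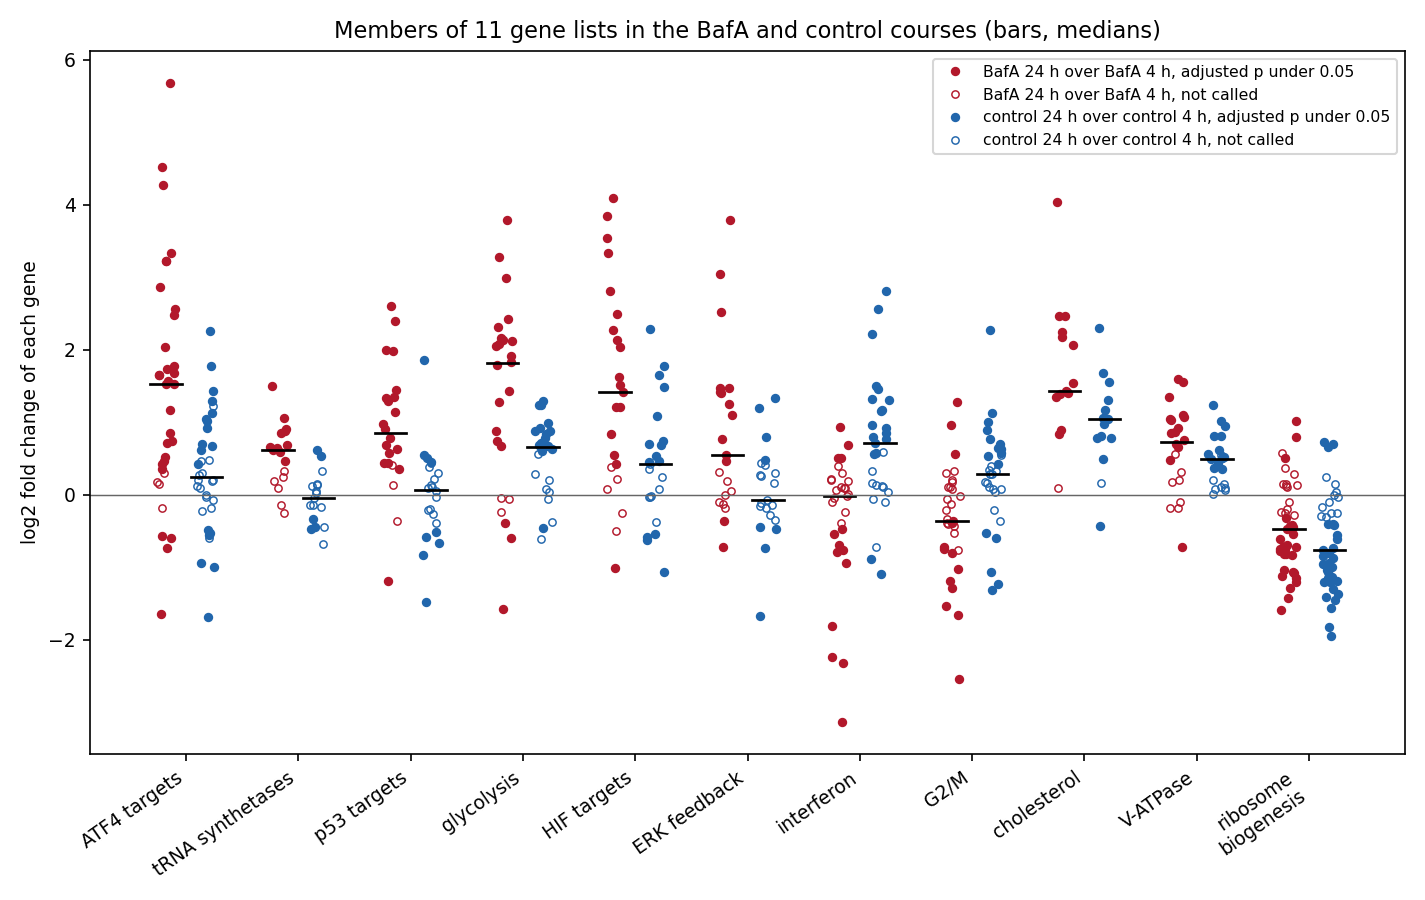
Log2 fold change of every tested gene of 11 lists in the BafA course (red, left of each pair) and the control course (blue, right), filled where the adjusted p was under 0.05, with bars at the medians. The ATF4, p53, glycolysis and HIF lists spread upward under BafA beyond their control columns, and the V-ATPase medians were 0.73 under BafA and 0.50 in control.

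Cholesterol synthesis genes rose in both courses, and some of them further under BafA. Of 15 cholesterol synthesis genes 14 rose under BafA and 0 fell (median 1.42), and in control 13 rose and 1, Ggps1, fell (median 1.04). The difference test called 8 higher. Tm7sf2 had 2615 and 2291.5 at BafA 24 h, against 143 and 157 at BafA 4 h. Mvk, mevalonate kinase, had 323 and 363 at BafA 24 h, against 65.4 and 58.8 at BafA 4 h. Cyp51, the lanosterol demethylase, had 4009 and 4322 at BafA 24 h, against 854 and 903 at BafA 4 h. Tmem97, a regulator of the cholesterol transporter NPC1, had 420.5 and 434 at BafA 24 h, against 85.3 and 80 at BafA 4 h. Npc1 itself had 1298 and 1251 at BafA 24 h, against 522 and 508 at BafA 4 h.

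More fatty acid synthesis genes rose than fell, and more oxidation genes fell than rose. In synthesis and desaturation 15 of 22 genes rose and 3 fell (median 0.73), while 12 rose and 1 fell in control (median 0.61). The difference test called 10 of them higher and 4 lower. Scd1, the stearoyl-CoA desaturase, had 5479 and 4672 at BafA 24 h, against 763 and 912 at BafA 4 h (control change 1.87). Elovl6, an elongase, had 652.5 and 451 at BafA 24 h, against 102 and 82.2 at BafA 4 h (control change 0.62). The desaturase gene Fads3 fell, with 84.5 and 80.8 at BafA 24 h, against 391 and 402 at BafA 4 h (control change 0.00). In oxidation 0 of 21 rose and 7 fell (median -0.22, 0.14 in control), or 13 with a median of -0.44 under quantile normalization, led by Acaa2, a mitochondrial thiolase, with 93.7 and 116 at BafA 24 h, against 383 and 363 at BafA 4 h. Cpt1a, the gate of fatty acid entry into mitochondria, had 269 and 282 at BafA 24 h, against 451 and 483 at BafA 4 h.

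Genes of the blocked compartment rose in part, in both courses. Of 22 V-ATPase subunit genes 14 rose and 1 fell (median 0.73), with 10 and 2 and a median of 0.36 under quantile normalization, while 14 rose and 0 fell in control (median 0.50). Atp6v1e1, of the cytosolic sector, had 4757 and 5863 at BafA 24 h, against 1698 and 1817 at BafA 4 h, and 3575.5 and 3609 at control 24 h, against 1579 and 1470.3 at control 4 h (difference 0.35, adjusted p = 0.198). Atp6v0a1, of the membrane sector, had 179.8 and 178 at BafA 24 h, against 55.8 and 66.7 at BafA 4 h (difference 0.99, adjusted p = 0.00247). Its paralogue Atp6v0a2 fell under BafA and rose in control, with 2062 and 2564 at BafA 24 h, against 3583 and 4013 at BafA 4 h.

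Lysosomal hydrolase genes rose in 14 and fell in 5 of 31 cases (median 0.43, 0.28 with normexp, and 0.34 in control), and the difference test called 2 higher and 2 lower. Asah1, acid ceramidase, had 1980.2 and 2066 at BafA 24 h, against 735 and 712 at BafA 4 h, and rose. Glb1, beta-galactosidase, had 76.2 and 82 at BafA 24 h, against 144 and 146 at BafA 4 h, and fell. Cathepsins split, with 4 higher and 5 lower of 12, or 1 and 5 under quantile normalization. Ctsd had 15048 and 15696 at BafA 24 h, against 8462 and 8977 at BafA 4 h. Ctsa had 2023 and 2235 at BafA 24 h, against 1317.5 and 1458 at BafA 4 h. Both passed the test as higher. Ctsb had 8096 and 7893.5 at BafA 24 h, against 9591 and 11721 at BafA 4 h. Ctsf had 244 and 198 at BafA 24 h, against 355 and 435 at BafA 4 h. Ctsb and Ctsf passed it as lower.

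Among lysosomal membrane proteins 11 of 26 rose and 4 fell, the falls being 7 under quantile normalization. Cd68 had 1015 and 1179 at BafA 24 h, against 204 and 231 at BafA 4 h, and 126 and 190 at control 24 h, against 135 and 172 at control 4 h, and was the 1 gene of the list called higher by the difference test, which called 7 lower, among them Lamp2 and Ctns, the cystine exporter. Mcoln1, the lysosomal calcium channel, rose in both courses, by 1.26 under BafA and 1.40 in control. Lamp1 had 7975 and 8132 at BafA 24 h, against 8600.4 and 8829 at BafA 4 h and did not pass (log2 fold change -0.11, adjusted p = 0.375), and Lamp2 fell.

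Tfeb, the factor that drives many of these genes, had 21.6 and 20.3 at BafA 24 h, against 43 and 41.9 at BafA 4 h, a fall of a dim spot (log2 fold change -1.02 ± 0.13, adjusted p = 6.05e-05), with a control change of -0.45. Its relatives Tfe3 and Mitf did not pass (-0.05 and 0.29). Lamtor1 and Lamtor4, of the Ragulator complex that anchors mTORC1 to lysosomes, rose in both courses, by 1.36 and 1.24 under BafA. Of 32 autophagy genes 14 rose and 3 fell, the falls being 5 under quantile normalization. In control 13 rose and 4 fell, and the difference test called 2 higher and 2 lower. Sqstm1, the receptor p62, had 3812 and 4156 at BafA 24 h, against 2823 and 2841 at BafA 4 h (control change -0.08), whereas Map1lc3b, the gene of LC3B, had a log2 fold change of 0.00 and did not pass.

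TFEB and its relatives bind an E-box with the core CACGTG, flanked in TCACGTGA or GTCACGTG, and the promoters of 3 genes of these lists that rose are shown because they hold a flanked form. Each line gives 60 bases of the strand of the gene, 5′ to 3′, from RefSeq promoters of build GRCm38.p6 (250 bases before to 50 after the start), with every CACGTG in capitals.
Atp6v0e (chr17:26676372-26676431, + strand): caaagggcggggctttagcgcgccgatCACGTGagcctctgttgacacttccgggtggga
Mcoln1 (chr8:3500447-3500506, + strand): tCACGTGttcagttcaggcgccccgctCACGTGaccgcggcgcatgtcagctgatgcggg
Atp6v0b (chr4:117887334-117887393, - strand): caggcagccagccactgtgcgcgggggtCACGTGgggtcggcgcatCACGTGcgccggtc

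Atp6v0e, a small subunit of the membrane sector, had values of 3378 and 4117 at BafA 24 h, against 1580.5 and 1373 at BafA 4 h. Atp6v0b had 1635 and 1869.8 at BafA 24 h, against 878 and 836 at BafA 4 h. CACGTG, which reads the same on both strands, was in 4 of 16 V-ATPase promoters (25%), 6 of 27 hydrolase promoters and 5 of 23 membrane protein promoters, against 9.18% of the promoters of 11972 named genes tested that had 1 and 7.24% of all 27025. TCACGTGA was in 3 of the V-ATPase, 1 of the hydrolase and 3 of the membrane protein promoters (1.6% of the named genes), and GTCACGTG, which overlaps it, in 2, 5 and 4 (3.68%). TCACCCCAC, 1 form of the sterol element, searched on both strands, was in none of 13 cholesterol synthesis promoters and in 0.493% of the named genes. A string this rare is unlikely to be met in 13 promoters, so its absence does not show that sterol elements are lacking. A match is a description of letters only.

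Feedback genes of the ERK pathway, which EGF and FGF receptors drive, rose. 12 of 21 rose and 2 fell (median 0.55, 0.17 with normexp, and -0.07 in control), and the difference test called 9 higher and 0 lower. Spry1, an inhibitor of receptor signalling, had 108 and 110.5 at BafA 24 h, against 7.3 and 8.6 at BafA 4 h, and 5 and 5.5 at control 24 h, against 3.4 and 4.4 at control 4 h. Dusp6, the ERK phosphatase, had 768 and 769 at BafA 24 h, against 136 and 131 at BafA 4 h. Etv4, an ETS factor, had 148 and 136 at BafA 24 h, against 16.4 and 17.9 at BafA 4 h. Spry1 and Etv4 stood below the array median at 4 h and above it at 24 h.

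More immediate-early genes fell than rose in both courses. 6 of 31 rose and 12 fell under BafA, and 3 rose and 11 fell in control. Fosl1, an AP-1 subunit, had 17.9 and 17 at BafA 24 h, against 111 and 119 at BafA 4 h. It was dimmer in control at both times, with 1.4 and 1.7 at 24 h, against 17.1 and 10 at 4 h (control change -3.08). Hbegf, a ligand of the EGF receptor, had 724 and 835 at BafA 24 h, against 1723 and 1705.5 at BafA 4 h (control change -2.08). Nr4a1, with the largest fall, had 63.3 and 50.1 at control 24 h, against 113.5 and 115 at control 4 h (difference -3.49). Jun and Egr1 did not pass (-0.10 and 0.09). Ier3, an early gene that restrains cell death, rose, with 2759 and 1626 at BafA 24 h, against 809.9 and 915 at BafA 4 h.

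Receptors and ligands of the pathways the study follows changed unevenly. Egfr had 147 and 159 at BafA 24 h, against 234 and 217 at BafA 4 h (log2 fold change -0.56 ± 0.16, adjusted p = 0.0136), and 137 and 191 at control 24 h, against 229 and 195 at control 4 h (difference adjusted p = 0.692). Fgfr3 had 6.7 and 6.7 at BafA 24 h, against 45.6 and 52 at BafA 4 h, while Fgfr1 had 539.8 and 552 at BafA 24 h, against 315 and 322 at BafA 4 h with a control change of -0.22. Notch1 had 295 and 277 at BafA 24 h, against 417 and 414 at BafA 4 h (log2 fold change -0.54 ± 0.13, adjusted p = 0.00629). Jag1, a Notch ligand, had 88.6 and 89.1 at BafA 24 h, against 10 and 8 at BafA 4 h (log2 fold change 3.31 ± 0.24, difference 2.73). Lfng, a glycosyltransferase that tunes Notch, had 61.1 and 57.8 at BafA 24 h, against 19 and 24.3 at BafA 4 h. Of the Notch targets, Hes1 had 147 and 172 at BafA 24 h, against 77.8 and 64 at BafA 4 h. Hey1 had 1604 and 2034 at BafA 24 h, against 3936 and 4158 at BafA 4 h. Hes5 did not pass (-0.21). Hes1 was higher and Hey1 lower at 24 h, and both moved the same way in control (0.68 and -1.06).

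Of 26 BMP and TGF-beta targets and antagonists 4 rose and 5 fell, the falls being 9 under quantile normalization. Fst, follistatin, which binds activin, had 152 and 145 at BafA 24 h, against 1018 and 1410.1 at BafA 4 h, and 77.1 and 109 at control 24 h, against 1824 and 1274 at control 4 h. The BMP targets Id1 and Id3 did not pass (0.06 and -0.06), and Id2 had 10183 and 10256 at BafA 24 h, against 6759 and 8832 at BafA 4 h.

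Cell cycle genes moved in both directions, and fewer G2/M genes rose than fell. Ccnd2, a D cyclin, had 6957 and 7009 at BafA 24 h, against 1546 and 1635 at BafA 4 h (log2 fold change 2.13 ± 0.20, 0.78 in control). Cdkn1a and Cdkn2a, inhibitors of the cycle, rose by 1.99 and 1.19, while Cdkn1c, p57, was dim and fell in both courses. Of 47 G1/S and replication genes 14 rose and 8 fell under BafA, while 13 rose and 7 fell in control. Of 31 G2/M genes 3 rose and 11 fell under BafA (median -0.36), while 11 rose and 5 fell in control (median 0.29), and the difference test called 13 lower and 0 higher. The list is dim: with only genes averaging at least 25, its BafA median was 0.03, and with normexp it was -0.05. Incenp, of the chromosome passenger complex, had 22.1 and 25.1 at BafA 24 h, against 136 and 139 at BafA 4 h. Nusap1, a spindle protein, had 29.9 and 30.7 at BafA 24 h, against 53.1 and 47.1 at BafA 4 h (control change 1.12). Mki67, the proliferation marker Ki-67, had 9.6 and 10.7 at BafA 24 h, against 12.1 and 9.3 at BafA 4 h and did not pass (adjusted p = 0.786).

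Nes and Gfap, filament genes of the study's cells, parted from their control course in opposite directions. Nes, the intermediate filament nestin, had 439.7 and 428 at BafA 24 h, against 227 and 213 at BafA 4 h, and 86.1 and 85.1 at control 24 h, against 218 and 174 at control 4 h, a rise under BafA and a fall in control (difference 2.17, adjusted p = 1.34e-05). Gfap, the astrocytic filament that quiescent stem cells also make, had 191.5 and 229 at BafA 24 h, against 711.5 and 914 at BafA 4 h, and 890.3 and 1092 at control 24 h, against 816 and 934 at control 4 h (difference -2.12, adjusted p = 6.67e-05). Under BafA, Gfap was lower and Nes higher at 24 h with no overlap between the times, while the control values of Gfap overlapped. Prom1, the stem cell surface protein prominin, fell, with 160.4 and 168.5 at BafA 24 h, against 509 and 539.9 at BafA 4 h (difference -1.07, adjusted p = 0.00166). Of the 11 neural stem cell markers, Gfap and Prom1 among them, the difference test called 2 higher and 3 lower.

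Of 22 astrocyte markers 11 fell and 6 rose (median -0.25, -0.12 with normexp, -0.61 under quantile normalization and 0.14 in control), and the difference test called 9 lower and 2 higher. Gja1, connexin 43, had 532 and 362 at BafA 24 h, against 5109.5 and 4040 at BafA 4 h (log2 fold change -3.37 ± 0.37). Ndrg2 had 577.5 and 576 at BafA 24 h, against 1616 and 1563 at BafA 4 h. Aqp4, the water channel, and Aldh1l1 did not pass (-0.08 and -0.19), although Aqp4 rose in control by 1.35, and Sparcl1 rose in both courses. Their summed values were 53714 and 53907 at BafA 24 h, against 68825 and 66323 at BafA 4 h, and their part in other results was not tested.

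Of 17 oligodendrocyte lineage markers 2 rose, the factors Olig1 and Olig2, and 5 fell. Olig1 had 3914 and 3396 at BafA 24 h, against 413.5 and 473 at BafA 4 h, and 3263 and 2750.5 at control 24 h, against 434 and 270 at control 4 h, with log2 changes of 3.04 and 3.13 (difference -0.09, adjusted p = 0.887). Olig2 had 1037 and 1089 at BafA 24 h, against 342 and 289.9 at BafA 4 h (control change 0.86). Myelin genes did not follow: Mbp and Mag did not pass (-0.14 and 0.05), and Cnp fell. The dim markers Pdgfra, of precursors, and Opalin fell, with log2 fold changes of -1.84 and -1.87. Early neuronal genes were dim, and Dcx had 11.1 and 13.2 at BafA 24 h, against 37.1 and 35.2 at BafA 4 h with a control change of 0.45, while Tubb3 had 77.3 and 78.6 at BafA 24 h, against 124 and 118 at BafA 4 h with a control change of 1.53. Of 19 neuronal markers 2 rose and 8 fell.

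Interferon and antigen presentation genes parted between the courses. Of 29 genes 4 rose (1 under quantile normalization) and 10 fell under BafA (median -0.01), while 17 rose and 2 fell in control (median 0.71). The difference test called 15 lower and 0 higher. Gbp2, a guanylate-binding protein, had 68.5 and 81.5 at BafA 24 h, against 649.7 and 661.5 at BafA 4 h, and 329 and 439 at control 24 h, against 748 and 660.4 at control 4 h. Usp18, which removes ISG15, had 20.8 and 23.1 at BafA 24 h, against 21.5 and 22 at BafA 4 h, and 136 and 152 at control 24 h, against 22.4 and 26.5 at control 4 h. Psmb8, a subunit of the immunoproteasome, had 18.1 and 19.8 at BafA 24 h, against 97 and 92 at BafA 4 h, with a control change of 0.12. Vcam1, an adhesion molecule of inflammation and of quiescent stem cells, had 101 and 107 at BafA 24 h, against 701 and 671 at BafA 4 h, and 689 and 664 at control 24 h, against 791 and 665 at control 4 h (difference -2.62, adjusted p = 2.10e-06).

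Actin and SRF target genes fell. 17 of 30 fell and 2 rose (median -0.44, -0.70 under quantile normalization, and -0.38 in control, where 15 fell), and the difference test called 9 lower. Acta2 led, with control values of 429.9 and 406 at 24 h, against 3004 and 2359 at 4 h. Vcl, vinculin, had 221 and 229.7 at BafA 24 h, against 1431 and 1213 at BafA 4 h. Actb, cytoskeletal actin, had 10672 and 11319 at BafA 24 h, against 20113 and 20760 at BafA 4 h with a control change of 0.13. Cytosolic heat shock genes fell in 10 of 18 cases under BafA and in 8 in control, and the difference test called 4 lower. Cryab, a small chaperone, had 333 and 384 at BafA 24 h, against 1426.5 and 1375 at BafA 4 h, whereas Hspa8 and Hsp90aa1 did not pass (0.01 and -0.13). Of mural, endothelial and fibroblast markers, which include Acta2, the sum was 251 and 257 at BafA 24 h, against 2885 and 3314 at BafA 4 h. Of the 17 markers 4 rose and 4 fell. Nearly all of the gap in the sum was Acta2 itself. Among dim members Flt1 had 15.8 and 15.3 at BafA 24 h, against 1.5 and 1.5 at BafA 4 h, and Eng had 28.9 and 25.9 at BafA 24 h, against 6.2 and 8.1 at BafA 4 h, both rises, and Pdgfra and Dcn fell (-1.84 and -1.51). Pdgfrb, Col1a1 and Cdh5 did not pass (-0.03, 0.00 and 0.06), and the part of such cells in the result was not tested.

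Matrix genes moved in both directions. Of 50 genes 9 rose and 18 fell. Spp1, osteopontin, had 2572 and 2637 at BafA 24 h, against 169.9 and 187 at BafA 4 h (control change 1.60). Fn1, fibronectin, had 3559.7 and 4093 at BafA 24 h, against 476 and 516 at BafA 4 h (control change 1.61). Thbs1, thrombospondin, had 1.3 and 1.2 at BafA 24 h, against 44.4 and 43 at BafA 4 h (control change -2.13). Lamc1, a laminin chain, had 199 and 206 at BafA 24 h, against 812 and 753 at BafA 4 h. Spp1 and Fn1 rose and Thbs1 and Lamc1 fell in both courses.

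Some clock and glucocorticoid-responsive genes moved far in both courses. Dbp, an output gene of the clock, had 395 and 432.5 at BafA 24 h, against 105 and 94.7 at BafA 4 h, with log2 changes of 2.05 under BafA and 2.20 in control. Arntl, the clock activator BMAL1, had 76.4 and 57.7 at BafA 24 h, against 391.5 and 381 at BafA 4 h, with -2.54 under BafA and -2.36 in control. Lcn2, lipocalin 2, rose by 2.49 under BafA and 2.65 in control. None of these 3 passed the difference test (adjusted p = 0.781, 0.851 and 0.757).

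NRF2 antioxidant genes rose in 13 of 24 cases, with 8 higher and 4 lower under quantile normalization. In control 9 rose and 2 fell, and the difference test called 7 higher and 2 lower. Nqo1 had the largest change of the list, by 2.20 under BafA and 2.80 in control (difference -0.61, adjusted p = 0.0265). Gclc, of glutathione synthesis, had 495 and 504 at BafA 24 h, against 207 and 201 at BafA 4 h (control change 0.18).

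Genes of protein synthesis, degradation and respiration shifted in small steps that depended on the scaling. Cytosolic ribosomal protein genes rose in 46 and fell in 2 of 57 cases (median 0.67, 0.21 in control), but in 23 and 4 under quantile normalization. Proteasome genes rose in 20 of 33, and in 4 with 2 falling under quantile normalization. Respiratory chain and ATP synthase genes rose in 33 of 73 (median 0.32, 0.57 in control), and under quantile normalization the median turned to -0.10 with 5 higher and 18 lower. Ribosome biogenesis genes fell in 25 and rose in 3 of 41 (22 lower with normexp and 28 under quantile normalization), and 27 fell in control. Nop58, a nucleolar protein of small RNA complexes, had 243 and 327 at BafA 24 h, against 812 and 707 at BafA 4 h. Rpl13a, of the large subunit, had 1462 and 1443 at BafA 24 h, against 574 and 548 at BafA 4 h.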

How the data were processed

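Total RNA of 8 samples (4 groups, 2 arrays each) had been hybridised with Cy5 label to single-colour 3D-Gene arrays. The authors deposited the spot intensity of each scan and a table of intensity values from which the level of the blank spots had been subtracted and which had been scaled array by array to a median of 25, with probes not above the blank spots left empty. The table was used as deposited. Of its 23473 probes, 16631 carried 1 gene symbol and 6842 none. Through the gene synonyms of RefSeq 3947 symbols were updated, where a synonym belonged to 1 current symbol only.

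Log2 values of all 8 arrays were fitted with limma 3.58.1 in R 4.3.3 (1 coefficient per group, empirical Bayes with a trend, 4 residual degrees of freedom, Benjamini-Hochberg adjustment over all probes of a contrast). Contrasts were BafA 24 h minus BafA 4 h, control 24 h minus control 4 h, and the difference of both. With 2 arrays per group the smallest p of an exact, two-sided permutation test is 0.333, so none was run. Figures were drawn with matplotlib 3.10.9 under Python 3.11.15, pandas 2.3.3 and numpy 2.4.6.

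Genes and lists were chosen with earlier results of these data known. The genes named are the 15 largest rises and falls (values separate between times, mean of at least 100 in the higher group), the 10 largest positive and negative differences between the courses, up to 5 members of each list with the largest called change and others needed for its spread, and genes the study follows. Genes given beyond these were chosen after their values were seen. Alternatives were normexp-corrected scanner signals (offset of 50), quantile normalization, a pseudocount of 25, minimum values of 25 and 100, no trend, replicate and scan blocks, other sample sets, the methods' t-test and 2-fold rule, and leaving out each array. The number of arrays limits the precision.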

Additional observations from a re-analysis of the deposited data

Results flagged for a closer look

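Results are listed here where the change between 24 h and 4 h differed between the BafA and control courses by the limma test of the difference itself. That test called 1733 probes with a higher and 1711 with a lower change under BafA. Among the named genes the difference of the log2 changes, BafA minus control, was 5.06 for Chac1, 5.06 for Nptx1, 5.0 for Tm4sf1, 4.96 for Tes, 4.70 for 1600014C23Rik, 3.85 for Ptgs2, 3.71 for Tnfrsf22, 3.71 for Mthfd2, 3.64 for Egln3 and 3.47 for Angpt2. On the other side it was -5.05 for Hspb1, -4.57 for Mmp11, -4.47 for Mmd2, -4.26 for Enpp2, -4.23 for Slc39a12, -4.07 for Ntsr2, -3.97 for Vit, -3.80 for Cd59a, -3.77 for Acta2 and -3.66 for Zfp91. The differences of 1600014C23Rik, Tes and Tnfrsf22 rest on dim spots in every group but BafA 24 h. Groups of 2 arrays are too small to test for a single array that stands apart.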

How the results depend on the processing

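Of the 251 named gene results 248 passed the test. Passing it was a condition of being named for all but the genes the study follows. That count, and the steadiness of direction given next, were therefore largely set by the choice of genes. None of these 248 changed direction under an alternative that refitted them, and 14 lost the call under at least 1 of them. Minimum values of 25 and 100 kept 208 and 160 of the 251 genes. The methods' t-test and 2-fold rule were compared by counts of probes only. Of the 46 list medians 12 changed sign under at least 1 alternative, the largest of these being -0.36 for G2/M genes. Of the BafA comparison, 8589 probes were called. With a mean of at least 100 this was 3993, of fewer probes tested, with the methods' t-test 7924 at their unadjusted threshold and 2050 after Benjamini-Hochberg, and by the methods' 2-fold rule, with no test, 2844. Leaving out 1 array at a time gave 6079 to 9157. The difference between the courses had 3444 calls, 1771 with a mean of at least 100, and 2277 to 3718 leaving out 1 array, the lowest without the first BafA 4 h array. The control comparison had 7537 calls, 3358 with a mean of at least 100, 4615 with the 6 arrays of 1 scan setting, and 5194 to 7124 leaving out 1 array. The minimum of 100 tests fewer probes by construction, and for the other counts the cause was not tested. Fits on fewer arrays called fewer probes in some cases and more in others, with 9412 for the BafA comparison on the 4 BafA arrays alone. Where an alternative left 1 array in a group, that array is assumed to vary like the others.

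With the replicate number as a block the counts were 9286, 3928 and 8363 for the same 3 comparisons. Deviations of same-numbered arrays correlated at 0.03 between the BafA groups, at 0.20 between the control groups and at 0.07 to 0.15 between BafA and control groups (across 20473 probes), so not every pair of groups was above 0.1 and the numbers were not taken to pair the samples.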
